A study of Mus musculus with 18 samples.

Results

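Csn2, Btn1a1, Dcpp1, Dcpp3 and Sprr2g are 5 of the 24054 genes in the deposited RNA-Seq tables, and they encode proteins known from milk, saliva and the outer layer of stratified epithelia. They were chosen by name after they had been seen to be high in thyroid of THRB K146Q mice, so the thyroid comparison selected them and their thyroid values are given here as a description, without a test. The hypothalamus and pituitary of the same mice played no part in the choice, and the members that were high enough were tested there. All 5 symbols were found in each of the 3 tables.

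Hypothalamus, pituitary and thyroid RNA was sequenced from 3 WT mice (numbered 1, 2 and 43) and 3 K146Q mice (60, 62 and 83), to follow the thyroid axis in a mouse with an altered thyroid hormone receptor. The K146Q mice carried a targeted point mutation that puts glutamine in place of the sumoylated lysine K146 in the second zinc finger of THRB, and all animals were untreated C57BL/Ntac males 3 months of age. The mutation is global and alters every THRB isoform, so a value in thyroid cannot be assigned to the receptor of the thyroid itself. The thyroid libraries held between 18611998 and 21230050 reads, and thyroglobulin (Tg), the storage protein of the follicle, took 23.8% to 29.0% of the WT reads and 7.97% to 11.5% of the K146Q reads in them, against at most 0.0187% in any hypothalamus or pituitary library.

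Csn2 encodes beta-casein, a major milk protein that mammary epithelium makes under prolactin through JAK2 and STAT5. Btn1a1 encodes butyrophilin, a membrane protein needed to release milk fat globules. Dcpp1 and Dcpp3 encode demilune cell and parotid proteins, secreted in saliva, and Sprr2g belongs to the small proline-rich proteins that transglutaminases link into the cornified envelope of keratinocytes.

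The members lie at 4 loci (GRCm38, GENCODE M21). Csn2 is on chromosome 5 from 87692624 to 87699630 (− strand), Btn1a1 on chromosome 13 from 23456992 to 23465901 (− strand), and Sprr2g on chromosome 3 from 92373915 to 92375229 (+ strand), where GENCODE lists it as a polymorphic pseudogene. Dcpp1 and Dcpp3 share a locus on chromosome 17, from 23880876 to 23882853 and from 23917458 to 23919441 (both + strand). GENCODE annotates their paralog Dcpp2 there from 23880880 to 23900788, overlapping Dcpp1. The RefSeq promoter window of Dcpp2, printed below, lies beyond the end of Dcpp1. RefSeq promoter windows of build GRCm38.p6, from 250 bases before to 50 bases after the transcript start, are printed for Csn2 and for the Dcpp genes because the Dcpp copies carry nearly the same promoter while their levels differ. Capitals mark matches, on either strand, to the STAT motif TTCNNNGAA or to the core TGACG of the cAMP response element, which is also contained in the full element TGACGTCA.
Csn2, chr5:87699376-87699675 (− strand): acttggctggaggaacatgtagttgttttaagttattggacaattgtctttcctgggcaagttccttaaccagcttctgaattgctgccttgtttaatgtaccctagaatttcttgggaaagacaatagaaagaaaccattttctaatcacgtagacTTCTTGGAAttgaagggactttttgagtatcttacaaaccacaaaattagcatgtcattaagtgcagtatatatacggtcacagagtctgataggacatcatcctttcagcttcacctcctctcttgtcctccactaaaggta
Dcpp1, chr17:23880626-23880925 (+ strand): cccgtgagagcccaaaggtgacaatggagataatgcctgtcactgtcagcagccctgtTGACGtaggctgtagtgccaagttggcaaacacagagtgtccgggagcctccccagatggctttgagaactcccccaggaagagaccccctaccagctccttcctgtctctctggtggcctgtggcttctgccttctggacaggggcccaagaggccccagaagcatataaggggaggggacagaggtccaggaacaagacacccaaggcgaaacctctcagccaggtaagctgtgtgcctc
Dcpp2, chr17:23898472-23898771 (+ strand): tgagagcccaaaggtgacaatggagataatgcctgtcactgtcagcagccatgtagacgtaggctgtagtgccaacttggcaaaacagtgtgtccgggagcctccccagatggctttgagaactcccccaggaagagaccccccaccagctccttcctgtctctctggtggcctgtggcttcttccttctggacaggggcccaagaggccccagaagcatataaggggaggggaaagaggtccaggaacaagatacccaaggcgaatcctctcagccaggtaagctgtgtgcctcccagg
Dcpp3, chr17:23917208-23917507 (+ strand): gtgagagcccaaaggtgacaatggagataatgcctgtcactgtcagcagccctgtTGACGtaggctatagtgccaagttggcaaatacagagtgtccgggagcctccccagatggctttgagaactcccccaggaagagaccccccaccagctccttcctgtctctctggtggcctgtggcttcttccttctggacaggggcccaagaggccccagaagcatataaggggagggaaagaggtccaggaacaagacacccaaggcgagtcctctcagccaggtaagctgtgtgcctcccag
The Csn2 window held 1 STAT match, TTCTTGGAA, whose first base lies 93 bases before the start, and 8.30% of the 32851 promoter windows in the table hold at least 1 such match. The Dcpp1 and Dcpp3 windows held 1 TGACG each, 192 and 195 bases before the start, and the Dcpp2 window held neither motif. TGACG occurs in 20.8% of all windows, and the full element, found in none of these 4, in 1.79%. The Dcpp windows were 95.1% identical between Dcpp1 and Dcpp3, 96.4% between Dcpp2 and Dcpp3 and 93.8% between Dcpp1 and Dcpp2. Such a match describes letters only.

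In thyroid, the milk genes and Sprr2g were at or near zero in WT mice, the Dcpp genes were low, and all 5 were far higher in every K146Q mouse. Levels are in CPM, read counts that the authors scaled by library size and a further factor, and differences are K146Q minus WT on log2(CPM + 0.5), which understates the change of genes near zero. In bulk tissue, a change in the number of cells that make an RNA and a change in RNA per cell cannot be told apart.

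Csn2 had 0, 1 and 1 reads in WT mice 1, 2 and 43, which is 0, 0.0633 and 0.0601 CPM. In K146Q mice 60, 62 and 83 it had 353, 217 and 295 reads, or 17.5, 12.8 and 17.3 CPM. The K146Q libraries were close to each other and the WT libraries held next to nothing. Pooled over the mice of a genotype, the ratio was 385 (95% exact counting interval, 106 to 3182), and the log2 difference of 4.91 was number 18 among the rises of the 15200 thyroid genes tested on that scale (number 8 by edgeR and number 2 by DESeq2).

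Btn1a1 had 0.442, 0.0633 and 0.180 CPM (7, 1 and 3 reads) in WT mice 1, 2 and 43. It had 88.5, 66.8 and 75.3 CPM in K146Q mice 60, 62 and 83. The means, 0.229 ± 0.194 and 76.9 ± 10.9 CPM (SD, n = 3 each), stood 336-fold apart, or 631-fold without WT mouse 1, which held 7 of the 11 WT reads. The pooled ratio was 340.3 (95% exact counting interval, 189.97 to 682) and the log2 difference 6.75. Both genes of milk secretion were thus high in the same 3 libraries, with Btn1a1 above Csn2 in each of them.

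Dcpp3 reached the highest level of the 5. It had 38.3, 1.52 and 39.9 CPM in WT mice 1, 2 and 43 and 2544, 3513 and 2221 CPM in K146Q mice 60, 62 and 83. The means, 26.6 ± 21.7 and 2759 ± 672 CPM (SD, n = 3 each), were 104-fold apart, and the log2 difference was 7.53. On log2(CPM + 0.5) with all 6 mice it ranked number 1 among the rises of thyroid genes tested, but number 5 without WT mouse 2 and number 20 by edgeR and by DESeq2.

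Dcpp1 showed nearly the same pattern. Its WT values were 15.7, 0.443 and 14.9 CPM and its K146Q values 778, 881 and 631 CPM, in the same order of mice. The means were 10.4 ± 8.60 and 763 ± 125 CPM (SD, n = 3 each), 73.7-fold apart, with a log2 difference of 6.94. In both genes WT mouse 2 lay far below the other WT mice, K146Q mouse 62 was the highest and K146Q mouse 83 the lowest of the mutants.

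Sprr2g had 0.189, 0.0633 and 0 CPM (3, 1 and 0 reads) in WT mice 1, 2 and 43. It had 77.2, 60.9 and 104 CPM in K146Q mice 60, 62 and 83, where mouse 83 was the highest and mouse 62 the lowest, the opposite order to the Dcpp genes. The pooled ratio was 972 (95% exact counting interval, 379 to 3569.7) and the log2 difference 7.10. The ratio of the means, 959, became 2553 without WT mouse 1, which held 3 of the 4 WT reads. The intervals here and for Csn2 and Btn1a1 cover counting error only.

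**Figure D1:**
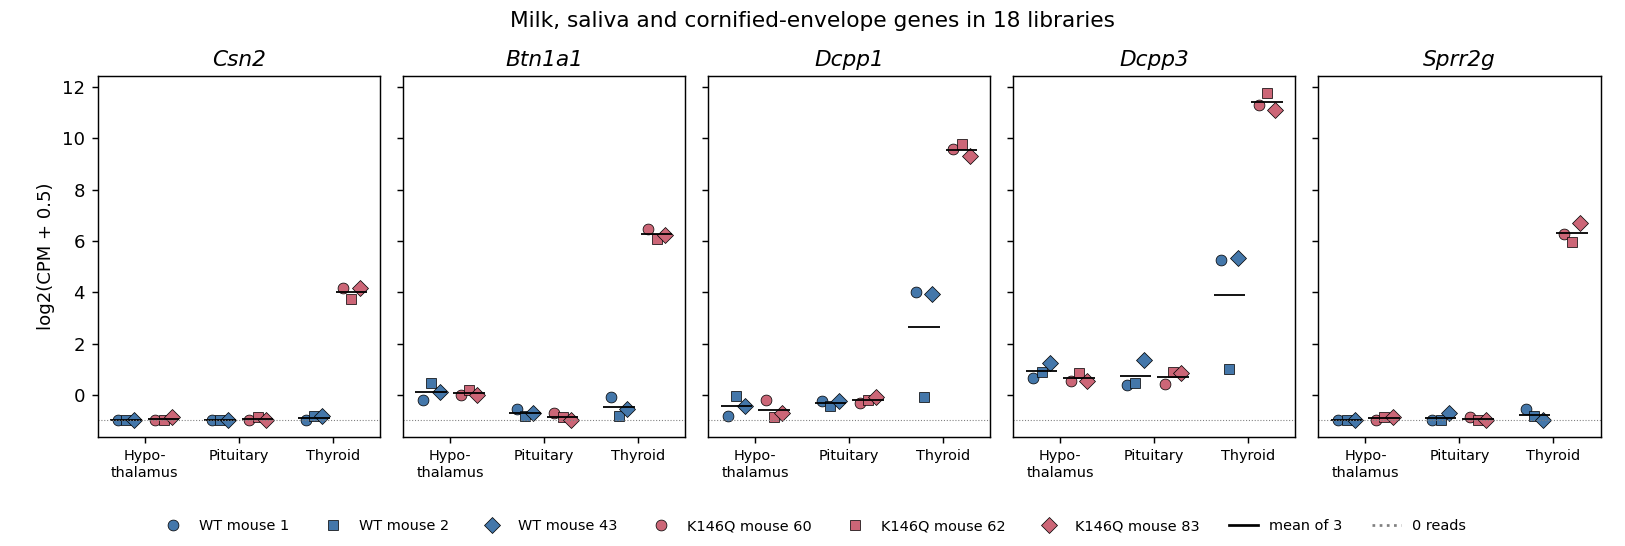
Level of each gene, log2(CPM + 0.5), in the 18 libraries, by tissue and genotype. Each symbol is 1 mouse, the bar is the mean of 3 mice and the dotted line marks 0 reads. The K146Q thyroid libraries stand above all others, and WT mouse 2 lies below the other WT thyroids for Dcpp1 and Dcpp3.

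For each of the 5, every K146Q thyroid library lay above every WT one. That separation belongs to how they were chosen, and it held for 26.6% of the 15200 thyroid genes tested. By limma with Benjamini-Hochberg adjustment 37.8% of those genes were called, 19.7% higher and 18.1% lower in K146Q thyroid. Csn2, Btn1a1 and Sprr2g were under 0.5 CPM in all WT thyroids and passed the filter on low values only through the K146Q libraries.

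Together the 5 genes took 0.333%, 0.415% and 0.269% of all reads in the K146Q thyroids of mice 60, 62 and 83. In the WT thyroids they took 0.00430%, 0.000175% and 0.00446% in mice 1, 2 and 43. Most of this was Dcpp3 and Dcpp1. Per kilobase of the longest coding transcript, the K146Q levels were 4070 ± 991 CPM for Dcpp3, 1237 ± 203 for Dcpp1, 124 ± 33.5 for Sprr2g, 22.5 ± 3.19 for Btn1a1 and 11.9 ± 2.02 for Csn2 (SD, n = 3 each). In that order no gene overlapped its neighbour, the closest pair being Btn1a1, lowest at 19.5 CPM per kilobase, and Csn2, highest at 13.2.

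Within the K146Q group the spread was small beside these differences, with a coefficient of variation from 14.2% for Btn1a1 to 27.0% for Sprr2g. Within the WT group WT mouse 2 set the spread of the Dcpp genes. Its Dcpp3 level of 1.52 CPM lay inside the range of the hypothalamus and pituitary libraries (0.801 to 2.05 CPM), whereas the other WT thyroids were near 40 CPM. Among 14591 thyroid genes with at least 0.5 CPM in WT mice 1 and 43, Dcpp3 and Dcpp1 were the pair lowest in WT mouse 2 relative to the other WT mice, by 19.2-fold and 16.3-fold on CPM + 0.5, and 11 genes were lower by at least 5-fold, Slc26a4 and Areg among them. Without WT mouse 2 the log2 differences were 6.10 for Dcpp3 and 5.58 for Dcpp1. The same library held thymus transcripts, with Rag1 at 10.3 CPM and Dntt at 12.2 CPM, against 0 and at most 0.411 CPM in the other thyroid libraries, and WT mouse 1 held more anterior pituitary RNA (Gh at 365 CPM, against at most 125 in the other thyroids). The part of either in the members' values was not tested.

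The Dcpp genes are close copies, and their separate values are less certain than their sum. The longest coding transcripts of Dcpp1 and Dcpp3 were 83.7% identical, those of Dcpp2 and Dcpp3 95.4%, and only 53.5%, 57.0% and 53.9% of the 50-base stretches of Dcpp1, Dcpp2 and Dcpp3 occurred in no other gene's transcripts. For Btn1a1, Csn2 and Sprr2g that share was 100%. RSEM, the counting tool in the submitters' processing notes, divides reads shared between copies by an estimate. The ratio of Dcpp3 to Dcpp1 ran from 2.43 to 3.99 over the 6 thyroid libraries, and the 3 Dcpp genes summed to 54.3, 1.96 and 55.8 CPM in WT and 3344, 4438 and 2880.0 CPM in K146Q thyroids.

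In hypothalamus and pituitary the members stayed at or below a few CPM in both genotypes, and limma, edgeR and DESeq2 called none of those tested, with 0 at an unadjusted limma p under 0.05. Csn2 had at most 1 read and Sprr2g at most 2 reads in any of these 12 libraries, and Dcpp1 had 1 to 9. Dcpp3 was detected throughout, at 0.801, 0.858 and 2.05 CPM in WT and 0.826, 1.33 and 1.30 CPM in K146Q pituitary. Its pituitary log2 difference was -0.01 (standard error 0.28, limma adjusted p = 0.984), and the genotypes overlapped. In the pituitary 9.86% of 15589 genes were called, and Dcpp3 was the only member that passed the filter there.

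In hypothalamus, Dcpp3 had 1.07, 1.33 and 1.86 CPM in WT and 0.966, 1.30 and 0.968 CPM in K146Q mice, a log2 difference of -0.27 (standard error 0.20, limma adjusted p = 0.998). Btn1a1 had 0.358, 0.867 and 0.580 CPM in WT and 0.483, 0.650 and 0.484 CPM in K146Q mice, a log2 difference of -0.06 (standard error 0.23, limma adjusted p = 0.998). Both overlapped between genotypes. The background there was 0 called of 15761 genes by limma (percent called 0, with 645 genes at an unadjusted p under 0.05), 0 by edgeR and 9 by DESeq2. These values rest on 6 to 32 reads per library, so small changes would not have been detectable.

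**Figure D2:**
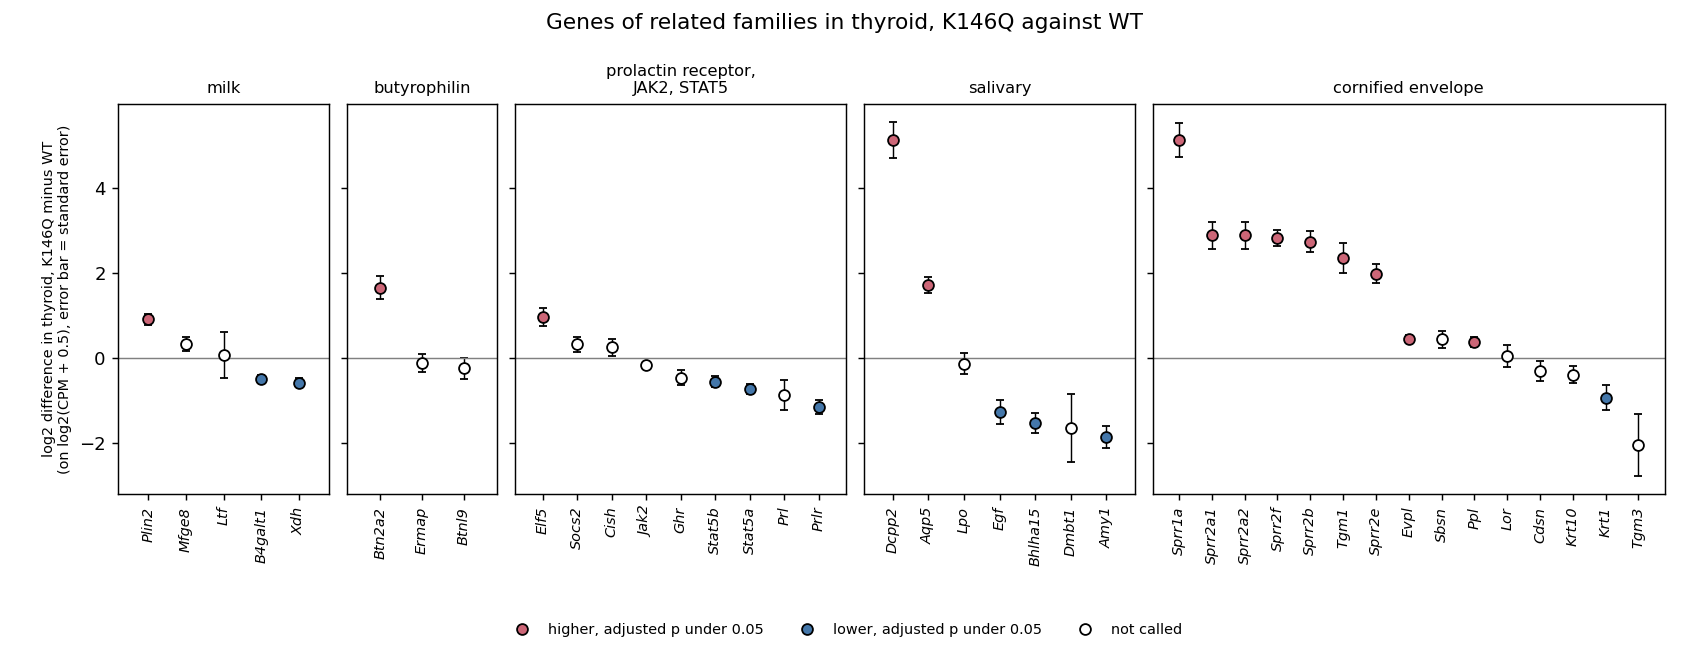
Log2 difference in thyroid, K146Q minus WT on log2(CPM + 0.5), for the 39 related genes that passed the filter, in 5 lists. Bars are limma standard errors from 3 mice against 3, moderated over all genes tested. Filled symbols passed an adjusted p of 0.05, red for higher and blue for lower. Dcpp2 at 5.15 and Sprr1a at 5.14 have the largest differences, and the milk and prolactin pathway genes lie between -1.15 (Prlr) and 0.96 (Elf5).

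To see whether the relatives of the members moved too, 80 genes were listed in 5 groups (milk, butyrophilins, prolactin receptor to STAT5, saliva, cornified envelope), of which 76 were in the tables and 39 passed the filter in thyroid. Of these 39, 14 (35.9%) were higher and 9 (23.1%) lower in K146Q thyroid by limma, beside 19.7% and 18.1% of all thyroid genes tested. Btn2a2, Sprr2b, Sprr2e and Sprr2f were under 0.5 CPM in all WT thyroids and passed the filter only through the K146Q libraries. Sprr2a1 and Sprr2a2 carry the same values. Without those 4 genes and with Sprr2a1 and Sprr2a2 counted once, 9 were higher and 9 lower of 34. Krt1, among the lower genes, passed only through the WT libraries and was kept, so genes were left out in 1 direction only. Dcpp2, Sprr1a, Sprr2a1 and Sprr2a2, also called higher, reached 0.5 CPM in only some WT libraries and needed K146Q libraries to pass. In all 6 thyroid libraries 14 of the 76 had 0 reads. The median log2 difference of all thyroid genes tested was -0.03.

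The milk list did not rise with Csn2. The other caseins Csn1s1, Csn1s2a and Csn1s2b, whey acidic protein (Wap) and Glycam1 had 0 reads in all 6 thyroid libraries, Csn3 had 4 reads in WT and 0 in K146Q, and alpha-lactalbumin (Lalba) had 1 read in each genotype. Of 5 milk genes tested, Plin2, a lipid droplet coat protein, was higher at 163 ± 8.50 against 86.9 ± 14.7 CPM (SD, n = 3 each; limma log2 difference 0.92, adjusted p = 0.00147). Xdh, which acts with butyrophilin on the milk fat globule, was lower at 30.2 ± 3.18 against 45.2 ± 2.99 CPM (log2 difference -0.58, limma adjusted p = 0.00416), and B4galt1, the galactosyltransferase of lactose synthase, was lower with a log2 difference of -0.49 (limma adjusted p = 0.0028). Mfge8 and Ltf were not called by limma, and the median of the list was 0.07.

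The tables held 9 butyrophilin relatives, of which 3 were tested in thyroid and 1 was higher. Btn2a2, an immune regulatory butyrophilin that lies 11.8 kb from Btn1a1, was at 0.210 ± 0.161 CPM in WT and 1.75 ± 0.579 CPM in K146Q thyroids (SD, n = 3 each), and passed the filter only through K146Q libraries. Btnl9 and Ermap were not called by limma, and the median of the list was -0.13.

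The prolactin pathway was lower at its receptor and its STATs. Prlr, the prolactin receptor, fell from 770.3 ± 132 to 345 ± 50.7 CPM (SD, n = 3 each; limma log2 difference -1.15, adjusted p = 0.00133). Stat5a and Stat5b, the transcription factors that drive casein genes in the mammary gland, fell by 0.74 and 0.56 on the log2 scale (limma adjusted p = 0.00322 and 0.0119, the latter 0.0512 without K146Q mouse 62). Elf5, a factor of the mammary alveolar lineage, rose from 14.0 ± 4.27 to 26.8 ± 1.24 CPM (log2 difference 0.96, limma adjusted p = 0.0108). The STAT5 response genes Socs2 and Cish, with Jak2, Ghr and Prl, were not called by limma with all mice, though DESeq2 called Ghr and Prl lower, and the median of the 9 was -0.46.

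Of 17 salivary genes in the table, 7 were tested, with 2 higher and 3 lower. Dcpp2, the paralog whose GENCODE span overlaps Dcpp1, measured 0.316, 0 and 1.02 CPM in the WT thyroids of mice 1, 2 and 43. In the K146Q thyroids of mice 60, 62 and 83 it measured 21.4, 44.6 and 27.4 CPM (limma log2 difference 5.15, standard error 0.42, adjusted p = 0.000161). Reads shared with Dcpp1 and Dcpp3 could contribute to these values. Aqp5, the apical water channel of salivary and other glands, rose from 75.8 ± 17.7 to 251 ± 41.3 CPM (log2 difference 1.73, limma adjusted p = 0.000499). Amylase (Amy1), the secretory cell factor Bhlha15 and Egf fell by 1.87, 1.54 and 1.27 on the log2 scale (limma adjusted p = 0.00135, 0.00204 and 0.0109). The parotid and submandibular products Bpifa2, Pip, Prh1, Smr2 and Smr3a had 0 reads in every thyroid library, and the median of the list was -1.27.

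Of 15 cornified envelope genes tested, 9 were higher and 1 lower, with a median of 0.46. Of the 9, Sprr2b, Sprr2e and Sprr2f passed the filter only through the K146Q libraries. Without them and with Sprr2a1 and Sprr2a2 counted once, 5 were higher and 1 lower of 11, with a median of 0.38. The 1 lower gene, Krt1, passed the filter only through the WT libraries and was kept. Sprr1a rose from 0.866 ± 0.659 to 43.9 ± 11.2 CPM (SD, n = 3 each; limma log2 difference 5.14, adjusted p = 0.000143). Sprr2b, Sprr2e and Sprr2f, which lie on the same side of Sprr2g, had 0 reads in all WT thyroids and 2.92 ± 0.853, 1.50 ± 0.333 and 3.08 ± 0.351 CPM in K146Q thyroids, at least 47.4-fold, 24.3-fold and 49.5-fold higher against a floor of 3 reads over the WT group. Sprr2a1 and Sprr2a2 carried identical values, with 3.72% and 3.55% of their 50-base stretches unique, so they count as 1 observation (log2 difference 2.89, limma adjusted p = 0.000523). Sprr2g was far above the other Sprr2 genes in K146Q thyroid, at 124 CPM per kilobase against at most 5.05. Without division by transcript length its mean was 80.8 CPM, against at most 6.90 for those genes and 43.9 for Sprr1a.

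The rest of the cornified envelope list was mixed. Tgm1, the transglutaminase that links envelope proteins, rose from 29.1 ± 13.8 to 138 ± 12.6 CPM (limma log2 difference 2.36, adjusted p = 0.00213), and the plakin scaffold Evpl rose by 0.46 (limma adjusted p = 0.00781). Another transglutaminase gene, Tgm3, went the other way, at 4.49 ± 5.70 CPM in WT (11.1 in mouse 43) and 0.308 ± 0.275 CPM in K146Q thyroids. The genotypes did not overlap for Tgm3, but it was not called (limma log2 difference -2.06, adjusted p = 0.0588). It was called under 7 of 15 alternatives. Ppl, also a plakin, had a log2 difference of 0.38 (limma adjusted p = 0.0442), a call that was lost under 8 of 16 alternatives, among them leaving out WT mouse 1, WT mouse 43, K146Q mouse 62 or K146Q mouse 83 (adjusted p of 0.125, 0.105, 0.158 and 0.108). Loricrin (Lor), a main envelope protein of epidermis, was at 1.10 ± 0.438 and 1.13 ± 0.206 CPM (log2 difference 0.05, limma adjusted p = 0.901). The epidermal keratin Krt1, the 1 gene of the list called lower, had 41 reads in WT and 13 in K146Q thyroids (log2 difference -0.94, limma adjusted p = 0.038). It was under 0.5 CPM in all K146Q thyroids and passed the filter only through the WT libraries. Its call was lost under 6 of 15 alternatives, namely by edgeR and DESeq2 (adjusted p = 0.0612 and 0.0760) and by limma without WT mouse 1, WT mouse 2, K146Q mouse 62 or K146Q mouse 83 (adjusted p of 0.0875, 0.104, 0.120 and 0.105). Involucrin (Ivl) had 17 reads in WT and 15 in K146Q thyroids over 3 mice each, and Sprr1b, Sprr2d, Sprr2h and Sprr4 had 0 throughout.

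In pituitary limma called 3 list genes higher and 3 lower of 30 tested, or 20.0%, beside 9.86% of all genes tested there. Only 2 of the 30 were called without WT mouse 1, WT mouse 2 or K146Q mouse 60, and 3 without K146Q mouse 62 or without limma's mean-variance trend. In hypothalamus limma, edgeR and DESeq2 each called 0 of 25, with 3 at an unadjusted limma p under 0.05. The 6 pituitary calls were Mfge8, Lor and Bpifa2 higher and Prl, Stat5a and Bhlha15 lower, and Bpifa2, which passed the filter there only through the K146Q libraries, varied widely (4.43 ± 4.58 CPM in K146Q against 0.148 ± 0.218 in WT, SD, n = 3 each).

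**Figure D3:**
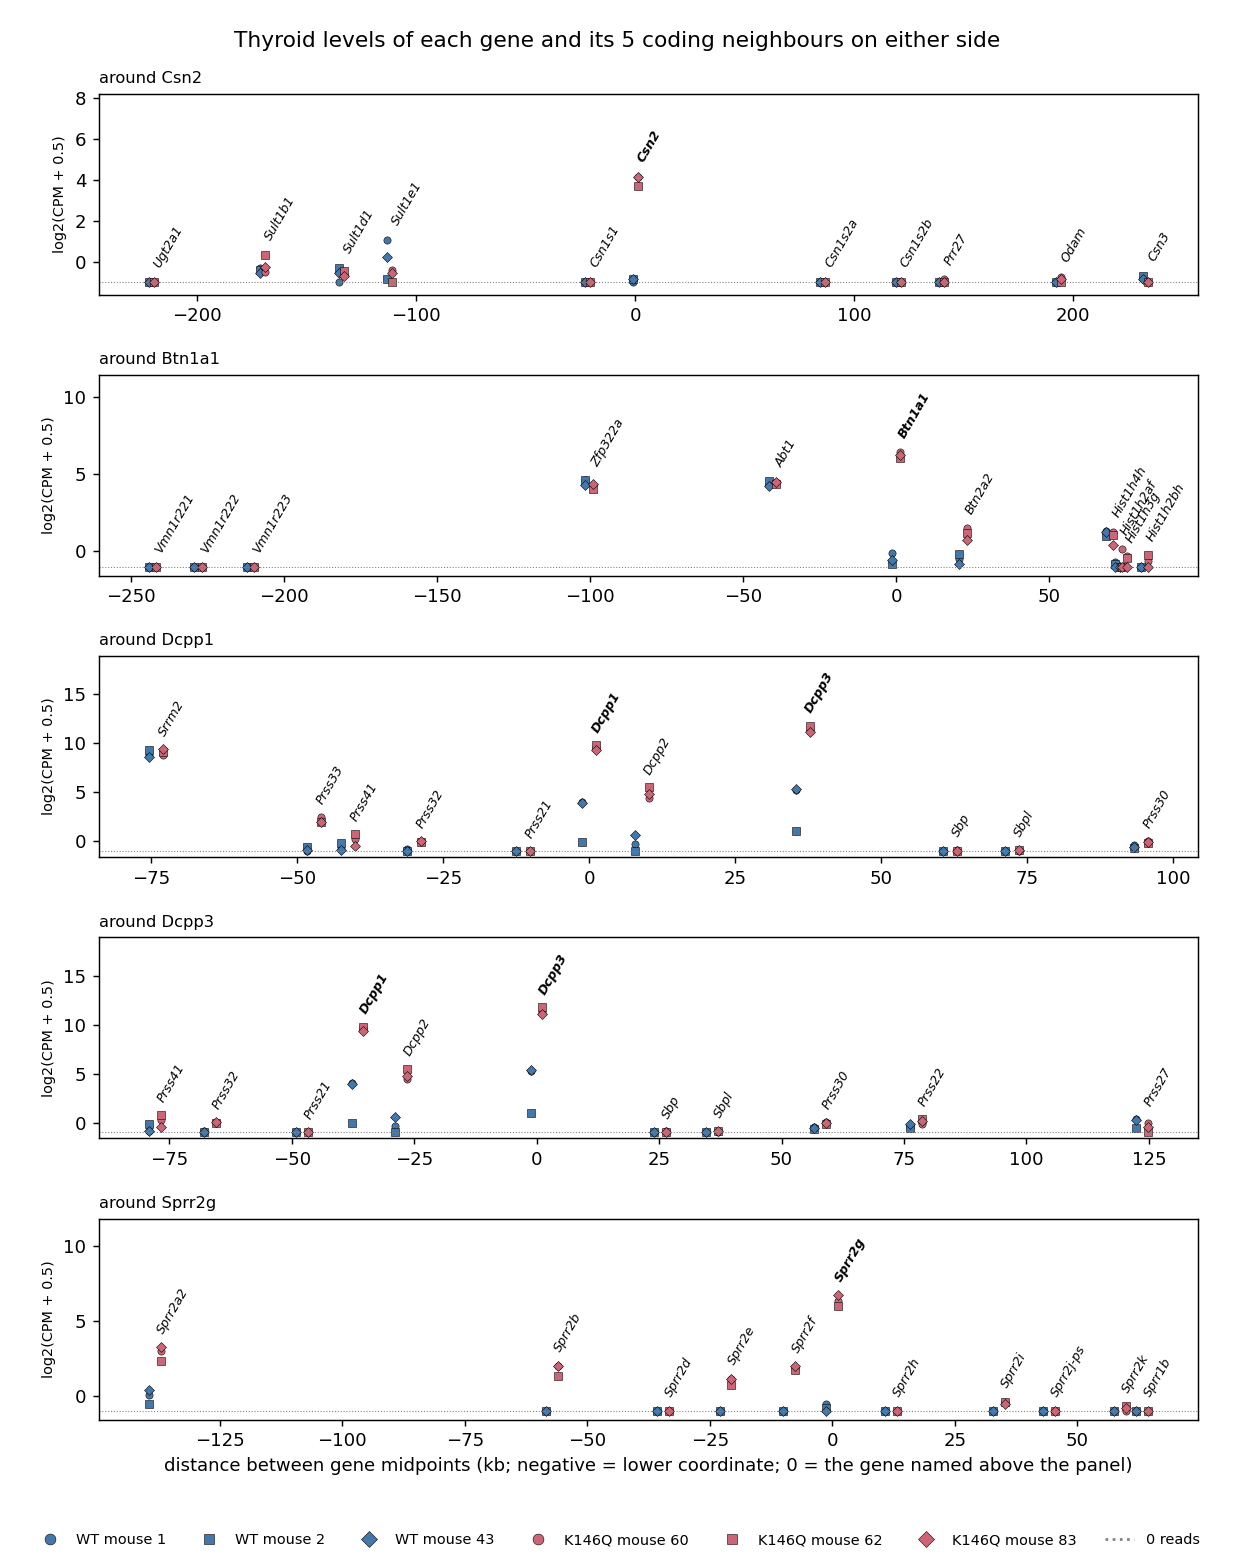
Thyroid level, log2(CPM + 0.5), of each gene and of up to 5 coding genes on either side, against the distance between gene midpoints in kilobases. Symbols are single mice, blue for WT and red for K146Q, and the dotted line marks 0 reads. Csn2 stands alone among its neighbours, whereas the Dcpp and Sprr2 loci hold several genes that are higher in K146Q mice.

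The neighbours of the members differed between the 4 loci. Around Csn2, none of 10 neighbours reached the filter, and Csn1s1, 10.05 kb away, and Csn1s2a, 74.9 kb away, had no reads. Around Btn1a1, Btn2a2, which passed the filter only through K146Q libraries, was the 1 gene called of 4 tested, while Abt1 and Zfp322a, at 33.1 and 87.8 kb, were not called (limma adjusted p = 0.699 and 0.124). Beside the Dcpp genes, Dcpp2 and the serine protease gene Prss33, 44.8 kb from Dcpp1, were higher of 3 tested. Prss33 had 4 reads in WT and 223 reads in K146Q thyroids over 3 mice each and passed the filter only through the K146Q libraries, while the proteinase gene Prss21, 7.76 kb from Dcpp1, had 0 reads. Of the protease genes with too few reads to test, Prss32 had 1 read in WT and 28 in K146Q thyroids and Prss30 had 9 and 26, both without overlap between genotypes, whereas Prss41 (8 and 38), Prss22 (14 and 32) and Prss27 (27 and 13) overlapped. Around Sprr2g, the 4 tested neighbours, Sprr2a2, Sprr2b, Sprr2e and Sprr2f, were all higher, but the last 3 passed the filter only through the K146Q libraries. Sprr2d, Sprr2h and Sprr1b, which lie among or beside them, had 0 reads. At the Sprr2 locus higher genes were interspersed with silent ones.

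Across the 18 libraries, the members had pairwise Pearson r of log2(CPM + 0.5) from 0.917 (Btn1a1 and Dcpp1) to 0.998 (Csn2 and Sprr2g). These correlations are descriptions over libraries that fall in separate clusters, and mostly reflect the 3 K146Q thyroids against the other 15. Among 17135 other genes, the closest to Csn2 and to Sprr2g was Sprr2f (r = 0.999 each), followed by Sprr2e, Fgg (fibrinogen gamma chain), Sprr2b and the cytokine Il6 for Csn2, and by Sprr2e, the cytokine Il24, Sprr2b and Il6 for Sprr2g. Closest to Btn1a1 were the prostaglandin D2 receptor gene Ptgdr (r = 0.990), the ionocyte factor Foxi1, C4bp, Il6 and Sprr2f. Il6 had 0 reads in all WT thyroids and 2.28, 2.59 and 2.40 CPM in K146Q mice 60, 62 and 83.

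Dcpp1 and Dcpp3 had other companions. The EGF receptor ligand Ereg was closest to both (r = 0.995 and 0.993), followed by surfactant protein D (Sftpd), with Esp8 and Wisp2 shared and Them5 or the mucin glycosyltransferase Gcnt3 completing the 5. Ereg levels were 2.15, 0.0633 and 2.35 CPM for WT mice 1, 2 and 43, against 11.4, 11.9 and 10.6 CPM for K146Q mice 60, 62 and 83, so it too was lowest in WT mouse 2. Sftpd was also lowest in WT mouse 2, at 0.127 CPM against 1.01 and 0.782 CPM in WT mice 1 and 43.

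**Figure D4:**
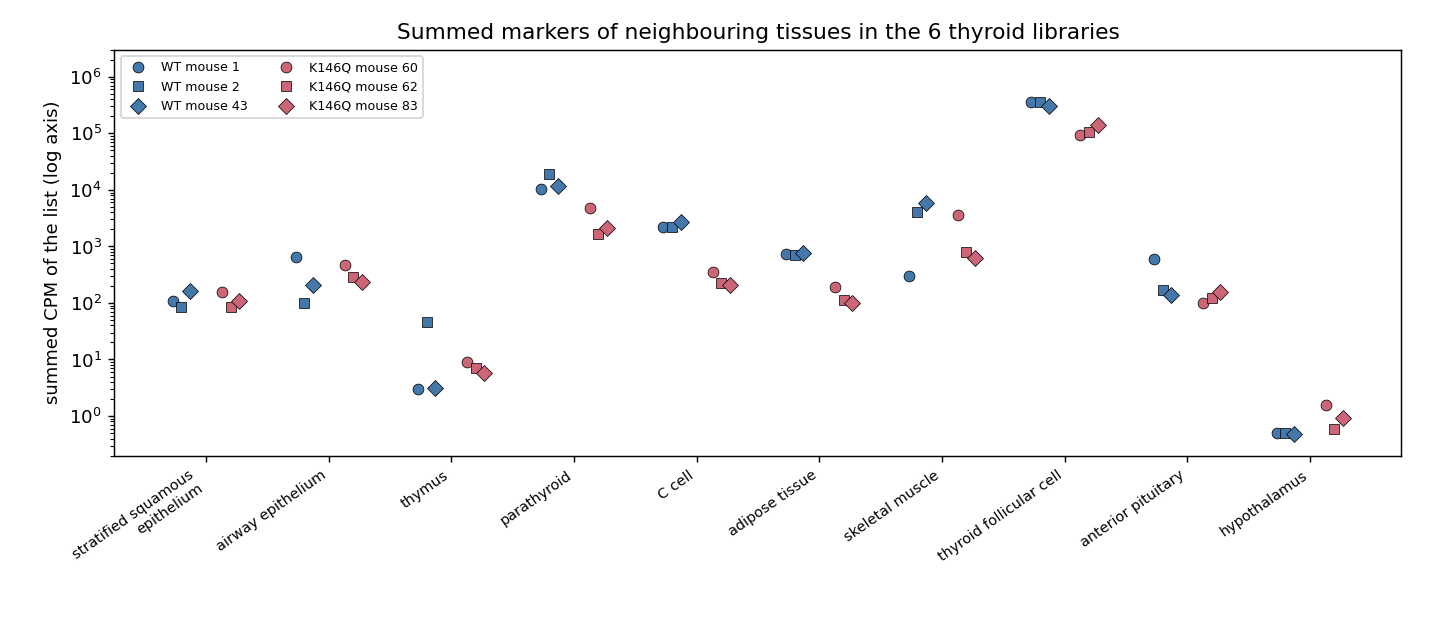
Summed CPM of 10 marker lists in the 6 thyroid libraries, on a log axis. Symbols are single mice, blue for WT and red for K146Q. Squamous and airway sums overlapped between genotypes, parathyroid, C cell and adipose sums were lower in all K146Q mice, and the thymus sum was highest in WT mouse 2.

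Markers of tissues that touch the thyroid were read in the same libraries. The 10 markers of stratified squamous epithelium summed to 109, 86.0 and 160.4 CPM in WT mice 1, 2 and 43 and to 158, 85.1 and 109 CPM in K146Q mice 60, 62 and 83, with 1 higher and 2 lower of 8 tested. Sfn, the most abundant, rose from 35.7 ± 7.45 to 54.4 ± 8.71 CPM (SD, n = 3 each; limma log2 difference 0.61, adjusted p = 0.0252). The basal factor Trp63 fell from 22.8 ± 1.53 to 12.6 ± 0.550 CPM (SD, n = 3 each; limma log2 difference -0.83, adjusted p = 0.000887), and the basal keratin Krt15 fell from 21.8 ± 12.2 to 5.19 ± 4.68 CPM (limma adjusted p = 0.0315). Krt14, also a basal keratin, was not called, at 7.81 ± 6.46 CPM in WT and 20.9 ± 18.6 CPM in K146Q thyroids (limma adjusted p = 0.170). K146Q mouse 60 stood apart from mice 62 and 83 in these keratins. It had 10.4 CPM of Krt15 against 1.35 and 3.81, and 42.4 CPM of Krt14 against 9.99 and 10.3. For Krt5, not called, it had 36.1 CPM against 9.23 and 13.7. Krt13 had 50 reads in WT thyroids, 42 of them in mouse 43, and 8 in K146Q thyroids.

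The 11 airway markers summed to 655, 100.2 and 210.0 CPM in WT and 468, 288 and 231 CPM in K146Q mice, led by Bpifa1, with 2 higher (Muc5ac and Tekt1) and 0 lower of 9 tested. Without Bpifa1, a choice made after its values were seen, the airway sum was 76.7, 44.9 and 95.8 CPM in WT and 189, 197 and 163 CPM in K146Q mice, and the genotypes did not overlap. That separation rested on Tekt1 and Dnah5, since the remaining 8 genes summed to 13.01, 13.98 and 5.89 CPM in WT and 22.7, 13.6 and 15.01 CPM in K146Q mice, which overlapped. Tekt1, a gene of motile cilia, rose from 53.2 ± 23.9 to 137 ± 17.5 CPM (SD, n = 3 each; limma log2 difference 1.45, adjusted p = 0.00779), and the mucin gene Muc5ac rose from 0.606 ± 0.462 to 7.70 ± 1.53 CPM (log2 difference 2.95, limma adjusted p = 0.000397). The axonemal dynein gene Dnah5 was higher in every K146Q library than in any WT library but was not called (log2 difference 2.46, limma adjusted p = 0.0755). Secretory markers other than Muc5ac, Bpifb1 and Reg3g had lower means in K146Q mice and overlapped between genotypes. The K146Q to WT ratios of means were 0.269 for Scgb1a1 (not tested), 0.243 for Scgb3a1, 0.537 for Scgb3a2, 0.594 for Muc5b and 0.587 for Bpifa1. None of those tested was called by limma. For Scgb1a1, Scgb3a1 and Bpifa1 the direction rested on a single WT mouse, without which the K146Q mean was the higher. WT mouse 2 held 41 of the 46 WT reads of Scgb1a1 and 70 of the 81 of Scgb3a1. Bpifa1 was at 578 CPM in WT mouse 1, against 55.3 and 114 CPM in WT mice 2 and 43. Scgb3a2 had 90 of its 144 WT reads in WT mouse 1. The part of airway or squamous RNA in the members' values was not tested.

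Other markers did move with genotype. All 4 parathyroid markers were lower, led by Chga, and their sum was 10195, 19238 and 11583 CPM in WT against 4747, 1670.3 and 2106 CPM in K146Q mice. All 6 adipose markers were lower, led by Fabp4, with sums of 727, 699.6 and 775 against 194, 114 and 97.9 CPM. Of 3 C cell markers, Calca and Ret were lower, Calcb was higher but passed the filter only through the K146Q libraries, and the sum of the 3 fell from between 2165 and 2673 to between 207 and 351 CPM. Of the 13 follicular markers limma called 4 higher and 2 lower (6 in all, against 7 by edgeR and 9 by DESeq2), and their sum, nearly all Tg, was 301499 to 362795 CPM in WT and 91842 to 139322 CPM in K146Q mice. Without Tg it was 6689, 5499 and 8061 CPM in WT and 7972, 9406 and 8902 CPM in K146Q mice, which overlapped. Of 5 thymus, 6 skeletal muscle and 5 anterior pituitary markers tested, limma and edgeR called 0, DESeq2 called 2, 0 and 1, and an unadjusted limma p was under 0.05 for 1, 0 and 1. The muscle sum varied widely within each genotype, at 299.7, 4149 and 5929 CPM in WT mice 1, 2 and 43. In K146Q mice 60, 62 and 83 it was 3631, 795 and 628 CPM. No hypothalamus marker was high enough to test. The part of these shifts in the members' values was not tested.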

How the data were processed

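RNA-Seq libraries of 3 tissues from 3 WT and 3 K146Q mice were analysed. The authors deposited a normalized signal per gene and library, CPM after a scaling factor, and beside it fold changes and p-values of their own comparison, which were not used. Per the labels' processing notes, bcl2fastq 2.17, Bowtie2 2.1.0 and RSEM 1.2.15 were used with build mm10. The annotation is not given in the sources used here. Of 432972 values 100.0% were whole multiples of 1 read (tolerance 0.01), which gave 14902330 to 21230050 reads per library, 3 reads being worth 0.133 to 0.190 CPM. Replicates differed by more than sampling noise (chi-square per degree of freedom at least 5.87). Only mouse numbers tell them apart, so p-values measure the spread between these samples.

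The test was limma 3.58.1 (R 4.3.3) with a mean-variance trend on log2(CPM + 0.5), fitted separately per tissue to genes that reached 0.5 CPM in 3 or more of its 6 libraries, two-sided, and p-values adjusted over all genes tested (Benjamini-Hochberg, threshold 0.05). Since the deposited values are normalized, the planned count test was not the main one, and edgeR 4.0.16 and DESeq2 1.42.0 on the recovered reads were alternatives, beside other pseudocounts, filters, scalings and leaving out each mouse. The fit was tested on simulated data. Tg had a limma standard error of 5.14 and is given by its values. The members and lists were chosen with earlier results of these data known. Genes named are the members, called genes of the related lists (at most 5 a list in each direction), the 5 most like each member, up to 5 coding neighbours on either side and leading or absent markers. Others were chosen after their values were seen. Btn1a1 and Sprr2g promoters, Btnl7-ps, Mucl2, Sprr2a3 and Flg are not analysed here. Sequences are from RefSeq (GRCm38.p6), transcripts from GENCODE M21, pairwise identity from Biopython 1.88 and intervals from scipy 1.17.1.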

Additional observations from a re-analysis of the deposited data

How the results depend on the processing

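The thyroid differences of the 5 members kept their sign under every alternative in which they could be fitted. Leaving out a mouse or changing the pseudocount could not turn a sign, because every K146Q thyroid lay above every WT one. The sizes of the differences moved with the pseudocount and with count models, which treat values near zero differently. For Csn2 the log2 difference was 6.84 with a pseudocount of 0.1, 4.004 with 1, 8.35 by edgeR and 8.59 by DESeq2. For Btn1a1 it was 8.03, 5.99, 8.36 and 8.41, and for Sprr2g 8.88, 6.21, 9.81 and 9.94 in the same order. Dcpp1 and Dcpp3 moved by less than the spread between mice, which WT mouse 2 made wide, and leaving out 1 mouse at a time gave 5.58 to 7.63 and 6.10 to 8.26. A filter of at least 1 CPM in every library left Dcpp3 as the only member. No paired analysis was possible because the genotypes compared share no mouse number.

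Leaving out 1 mouse at a time turned the sign of uncalled differences, from -0.23 to 0.11 for Btn1a1 in hypothalamus and from -0.19 to 0.30 for Dcpp3 in pituitary. Counts of calls ranged from 0 to 6 in hypothalamus (9 by DESeq2), from 655 (without K146Q mouse 60) to 1355 in pituitary, with 790 without K146Q mouse 62, and from 3763 (without K146Q mouse 62) to 5243 in thyroid. In the related lists 20 to 27 genes were called in thyroid, 13 to 15 higher and 7 to 12 lower. Without the genes that passed the filter only through K146Q libraries and with Sprr2a1 and Sprr2a2 counted once, an alternative chosen after seeing the data, 18 were called, 9 higher and 9 lower. That alternative kept Krt1, which passed the filter only through the WT libraries and was called lower. With at least 1 CPM in every library 25 list genes were tested and 14 called, 6 of them higher. Totals without the 10 highest genes gave 2494 higher and 3610 lower thyroid calls, with a median shift of -0.12, and 835 and 878 in pituitary, against 991 and 546. Uncalled list genes turned sign for Lor (-0.021 without the 10 highest genes, -0.13 to 0.25 leaving out mice), Lpo (-0.30 to 0.077 leaving out mice) and Ltf (-0.022 without the 10 highest genes, -0.14 by edgeR and by DESeq2, -0.58 to 0.59 leaving out mice). Krt1 lost its call under 6 of 15 alternatives, Ppl under 8 of 16 and Stat5b under 1 of 16; Tgm3 gained one under 7 of 15, Ghr under 3 of 16, Jak2 and Prl under 2 of 16 each, Btnl9, Cdsn, Cish and Socs2 under 1 of 16 each and Dmbt1 under 1 of 15.

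Few reads limit Csn2, Sprr2g and Btn1a1 outside the mutant thyroid and Dcpp1 in hypothalamus and pituitary, and 3 mice a genotype limit every test.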

Other observations

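Of the 11 thyroid genes at least 5-fold lower in WT mouse 2 than in both other WT mice, 5 lay higher in every K146Q thyroid than in any WT one. They were Dcpp3, Dcpp1, Dnah5, Lgi2 and Areg, and for 6 the genotypes overlapped. That separation held for 26.6% of the 15200 thyroid genes tested, and it belongs to how Dcpp3 and Dcpp1 were chosen. Areg, an EGF receptor ligand like Ereg, was at 21.9, 3.73 and 39.6 CPM in the WT thyroids of mice 1, 2 and 43, against 163, 131 and 189 CPM in those of K146Q mice 60, 62 and 83. Lgi2, a secreted leucine-rich repeat protein, had 22.7, 2.66 and 21.8 CPM in WT and 50.3, 50.3 and 65.7 CPM in K146Q thyroids. The axonemal dynein gene Dnah5 had 12.9, 0.380 and 11.7 CPM in WT and 24.0, 31.6 and 30.0 CPM in K146Q thyroids. B4galnt2, a glycosyltransferase, went the other way in the mutants, with 48.1, 1.58 and 31.1 CPM in WT and 1.69, 3.06 and 2.70 CPM in K146Q thyroids, and WT mouse 2 lay just below the mutants there. These genes were chosen after their values were seen, and the differences were not tested as a group.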
